A study of Mus musculus with 8 samples.

Results

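The genes described here were 9 Toll-like receptors, Tlr1, Tlr2, Tlr3, Tlr4, Tlr6, Tlr7, Tlr8, Tlr9 and Tlr13, and Cd14, the co-receptor that hands bacterial lipopolysaccharide to Tlr4. They were chosen by name from the gene column of the deposited table, and all 10 were found among its 23084 genes. RNA-sequencing was performed on myeloid cells sorted from the spleens of C57BL/6 mice aged 6 to 8 weeks, which were either wild-type (wt) or carried a myeloid deletion of Lmna, the gene of lamin A/C (LmnaMyeKO). In LmnaMyeKO mice, floxed Lmna is removed by Cre expressed from the lysozyme M (LysM) promoter. The paper reports Lmna recombination in both monocytic and granulocytic cells. Its methods state that lamin A/C expression did not differ between wt and LmnaMyeKO granulocytic cells. Each genotype was sorted into a CD11b+Ly6C+ monocytic and a CD11b+Ly6G+ granulocytic subset, with 2 samples in each of the 4 groups. The subset of a sample was read from its title, because the cell-marker label gives CD11b+Ly6C+ for all 8 samples. The paper studied healthy and tumor-bearing mice, and its main text does not state which of them were sequenced.

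The table gives 1 mean signal per gene, which is the authors' mean of normalized read counts, and no value per sample. The lowest values of that mean are whole-number sums of 8 distinct steps, 1 for each library, which is the number of samples in the series, so the mean joins both subsets and both genotypes. One library had a size factor of 1.91 against 1.05 for the next, and it cannot be tied to a sample. The comparison of genotypes within the table holds the authors' own fold changes and tests and was not used. What follows therefore describes how much of each receptor transcript the sorted splenic myeloid cells held on average, and how the surface and endosomal receptors compared. The spread between mice or samples cannot be given, no test between groups was possible, and the intervals printed cover counting error only. In sorted cells measured in bulk, fewer cells of a type and less RNA per cell cannot be told apart.

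Toll-like receptors sense conserved parts of microbes and signal through a shared cytoplasmic domain. Tlr1, Tlr2, Tlr4 and Tlr6 sit on the cell surface and bind lipopeptides or lipopolysaccharide, whereas Tlr3, Tlr7, Tlr8, Tlr9 and Tlr13 reach endosomes with the chaperone Unc93b1 and bind nucleic acids. All but Tlr3 pass their signal to the adaptor Myd88, and Tlr3 uses Ticam1, while Tlr4 can use both.

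Levels are given as mean signal per kilobase (kb) of joined exons, so that genes of different length can be compared. The median level of the 15697 coding genes in the table was 60.2 per kb. Of the 10 members, 9 were above that median, and Tlr3 was below it. Levels ran from 1874 per kb for Tlr13 to 25.1 per kb for Tlr3, a 74.6-fold range. All members together took 0.0755% of the summed level of all genes.

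**Figure D1:**
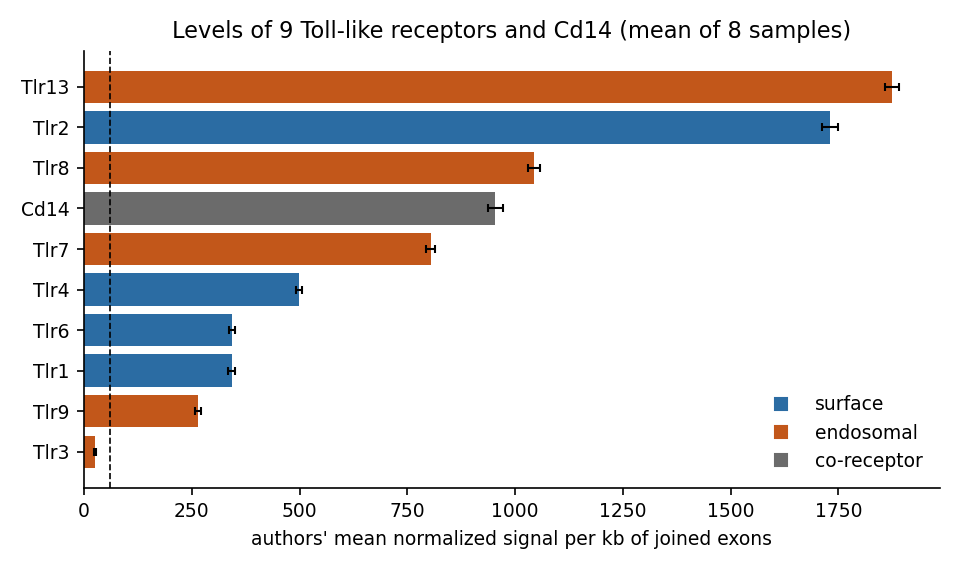
Mean signal per kb of joined exons for each member, with surface receptors in blue, endosomal receptors in orange and the co-receptor in grey. Each bar is the authors' mean over 8 libraries, the black bars are 95% counting intervals, which do not show the spread between samples, and the dashed line is the median of coding genes (60.2 per kb). Tlr13 and Tlr2 lead, and Tlr3 alone lies under the line.

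Among the endosomal receptors, Tlr13 was the highest. It recognizes bacterial ribosomal RNA, lies on chromosome X from 106143204 to 106160493 (plus strand; all positions are on mm10, from GENCODE M21), and had a mean signal of 8066, or 1874 per kb with a counting interval of 1858 to 1890. Tlr13 ranked at the 96.5th percentile of coding genes. It was the highest member under each of 3 length divisors and also without division by length.

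Tlr8 and Tlr7, receptors for single-stranded RNA, followed among the endosomal group. Tlr8 (chromosome X, 167242696 to 167264329, minus strand) had a mean signal of 3745, which is 1044 per kb (counting interval 1031 to 1058). Tlr7 (chromosome X, 167304929 to 167330558, minus strand) had a mean signal of 3282 and a level of 804.0 per kb (793.1 to 815.0). The 2 genes are neighbours on the same strand, with 40.6 kb and 0 annotated genes between them, and their levels differed by 1.299-fold. With coding length as the divisor the Tlr8 to Tlr7 ratio was 1.16, so Tlr8 stayed the higher of the pair. They share no stretch of 50 bases in their longest transcripts, although 52.7% of their aligned coding bases were identical, the second highest figure among the 36 receptor pairs.

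Tlr9, the receptor for unmethylated CpG DNA, was lower than the 3 RNA receptors on chromosome X. Tlr9 (chromosome 9, 106222598 to 106226883, plus strand) had a mean signal of 919.7 and a level of 264.4 per kb (257.7 to 271.3). Tlr7 exceeded it 3.04-fold and Tlr8 exceeded it 3.95-fold, and the 3 length divisors moved these ratios only within 3.04 to 3.51 and 3.95 to 4.13. Its coding region also had the highest GC content of the 9 receptors, 56.7%, against 39.8% for Tlr8 and 40.7% for Tlr7. The part of base composition in these levels was not tested.

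Tlr3, which senses viral duplex RNA, stood apart at the bottom. Tlr3 (chromosome 8, 45395665 to 45411080, minus strand) had a mean signal of 130.9, corresponding to between 833 and 2003 reads over the 8 libraries, and a level of 25.1 per kb (23.5 to 26.9). This put it at the 38.1st percentile of coding genes. Tlr9, the next above it among the 9 receptors, was 10.5-fold higher, and the length divisors gave 6.16-fold to 10.5-fold. Tlr3 is also the only member with another annotated gene over its locus, the antisense transcript Gm45542, which shares 68 of the 4358 windows of 50 bases in its longest transcript (1.56%).

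Among the surface receptors, Tlr2 was the highest. It pairs with Tlr1 or Tlr6 to bind bacterial lipopeptides. Tlr2 (chromosome 3, 83836272 to 83841767, minus strand) had a mean signal of 5218 and a level of 1731 per kb (1713 to 1750), at the 96.2nd percentile of coding genes. It stood close behind Tlr13, which was 1.08-fold higher. Their counting intervals did not overlap, but without a spread between samples it is unknown whether a gap of this size exceeds replicate error.

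The partners of Tlr2 were lower and alike. Tlr6 (chromosome 5, 64952031 to 64960097, minus strand) had a mean signal of 1278 and 343.0 per kb (335.6 to 350.5), and Tlr1 (chromosome 5, 64924679 to 64933563, minus strand) had a mean signal of 1147 and 342.8 per kb (335.0 to 350.8). These are the only neighbours in the order of members whose counting intervals overlapped. The order of the pair changed with the divisor, the Tlr1 to Tlr6 ratio running from 0.91 to 1.09. Tlr2 was 5.05-fold above either partner and 2.52-fold above both together, and the latter ratio was 2.20 with coding length.

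Tlr1 and Tlr6 lie next to each other on the same strand, with 18.5 kb and 0 annotated genes between them, and their coding regions are the most alike of all receptor pairs. Of their aligned coding bases 72.8% were identical, whereas the 35 other pairs ranged from 43.2% to 52.7%. The longest identical run covers 229 bases inside the single coding exon of each gene. It is shown because a read that falls wholly within it cannot be given to 1 of the 2 genes by sequence alone, so their separate levels rest on how RSEM divided such reads. In the following lines the identical run is in capitals, with 20 flanking bases on each side in lower case, written 5′ to 3′ on the minus strand and taken from GENCODE M21 transcripts on mm10.
Tlr1, chr5:64925517-64925785: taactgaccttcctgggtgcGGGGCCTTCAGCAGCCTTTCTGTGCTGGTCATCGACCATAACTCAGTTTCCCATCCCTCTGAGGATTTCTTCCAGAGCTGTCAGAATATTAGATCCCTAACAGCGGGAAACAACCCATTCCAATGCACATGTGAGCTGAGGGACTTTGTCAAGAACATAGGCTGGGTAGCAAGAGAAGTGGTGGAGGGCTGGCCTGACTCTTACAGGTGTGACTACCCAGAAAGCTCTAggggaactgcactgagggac
Tlr6, chr5:64953808-64954076: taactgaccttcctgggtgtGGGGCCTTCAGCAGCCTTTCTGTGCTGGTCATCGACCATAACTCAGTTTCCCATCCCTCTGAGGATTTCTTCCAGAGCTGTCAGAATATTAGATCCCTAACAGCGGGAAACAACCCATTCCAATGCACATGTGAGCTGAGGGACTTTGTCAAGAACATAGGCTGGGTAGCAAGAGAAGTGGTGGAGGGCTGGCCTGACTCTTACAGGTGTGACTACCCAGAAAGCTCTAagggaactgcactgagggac

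The run spans coding bases 1468 to 1696 of 2385 in Tlr1 and 1507 to 1735 of 2418 in Tlr6. It belongs to a longer stretch of high identity, seen in windows of 100 bases stepped by 25. All 33 windows centred between bases 1350 and 2150 of the Tlr1 coding region had at least 97% identity, while the 59 windows outside that stretch had a median of 59% and at most 92%. Across whole transcripts, 454 of 2976 windows of 50 bases in Tlr1 (15.3%) occurred unchanged in Tlr6. In Tlr6, 456 of 3628 such windows (12.6%) occurred in another transcript, Tlr1 or, for a few, Ctsq. Apart from Tlr1, Tlr6 and Tlr3, the members had 0 shared windows of 50 bases.

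**Figure D2:**
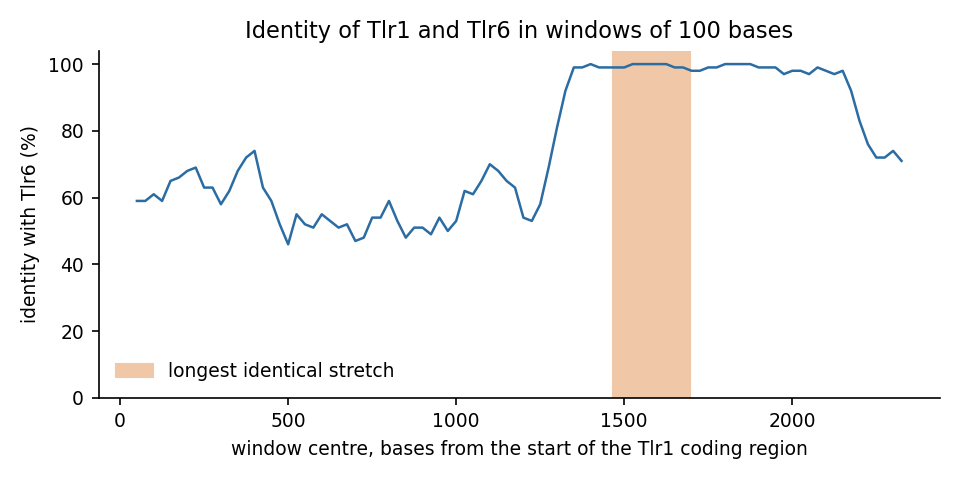
Percent identity of Tlr6 with Tlr1 in windows of 100 bases, plotted by window centre in bases from the start of the Tlr1 coding region. The shaded band is the 229-base identical run, and identity stays at or above 97% for window centres from 1350 to 2150.

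Tlr4, the receptor for lipopolysaccharide, had a mean signal of 2769 and a level of 498.4 per kb (491.1 to 505.8), and lies on chromosome 4 from 66827584 to 66930284 (plus strand). Its place depended on the length divisor, as only 2.505 kb of its 5.556 kb of joined exons are coding. With coding length, Tlr4 stood at 1105 per kb and passed Tlr7, whose coding level was 1042 per kb. Tlr2 was 3.47-fold above Tlr4 per kb of joined exons and 2.01-fold with coding length. Cd14 (chromosome 18, 36725067 to 36726798, minus strand) had a mean signal of 1653 and a level of 954.5 per kb (936.4 to 972.9), which was 1.92-fold the level of Tlr4 and 1.36-fold with coding length. Ly96, the small protein that completes the lipopolysaccharide receptor with Tlr4, reached 225.3 per kb, 0.45 of the Tlr4 level and 0.43 to 0.51 over the divisors.

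**Figure D3:**
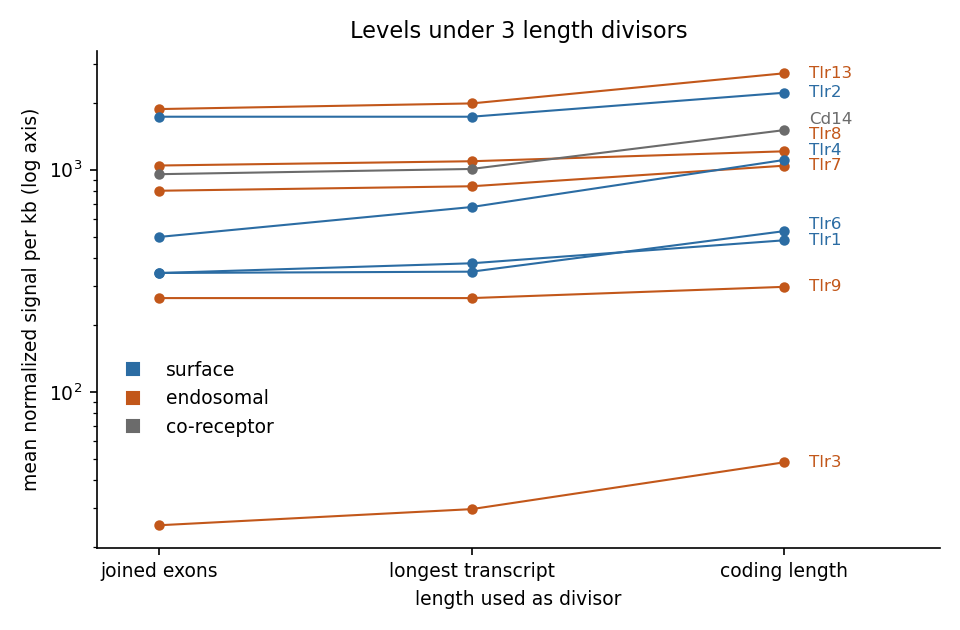
Levels of the members with mean signal divided by joined exons, by the longest transcript or by coding length, on a log axis, 1 line for each gene. Tlr13, Tlr2, Tlr9 and Tlr3 keep their places, while Cd14 crosses Tlr8, Tlr4 crosses Tlr7 and Tlr1 crosses Tlr6.

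The endosomal receptors together reached 4012 per kb and the surface receptors 2915 per kb, a ratio of 1.38. The endosomal group thus held 57.9% of the summed level of the 9 receptors, with a counting interval of 57.7% to 58.2%. It has 5 of the 9 genes, which would be its share if all 9 had equal levels. With coding length its share was 55.1%, slightly under 5 of 9. The order of the groups depended on which genes were counted. Without Tlr13 the endosomal share was 42.3% and without both Tlr7 and Tlr8 it was 42.6%, which turned the order, whereas without Tlr2 it was 77.2%. The endosomal median was 804.0 per kb and the surface median 420.7 per kb.

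Endosomal receptors ranged 74.6-fold from Tlr13 to Tlr3, and surface receptors ranged 5.05-fold from Tlr2 to Tlr1. The wide endosomal range rested on Tlr3, since Tlr13 was 7.09-fold above Tlr9, the lowest of the other endosomal receptors. Tlr13 alone made up 46.7% of the endosomal sum, and Tlr13, Tlr8 and Tlr7 together 92.8%. Tlr2 made up 59.4% of the surface sum. As shares of all 9 receptors, Tlr13 held 27.1%, Tlr2 24.99%, Tlr8 15.1% and Tlr7 11.6%, and Tlr3 held 0.363%. All 4 surface receptors lay within the endosomal range, since the highest and the lowest of the 9 were both endosomal.

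**Figure D4:**
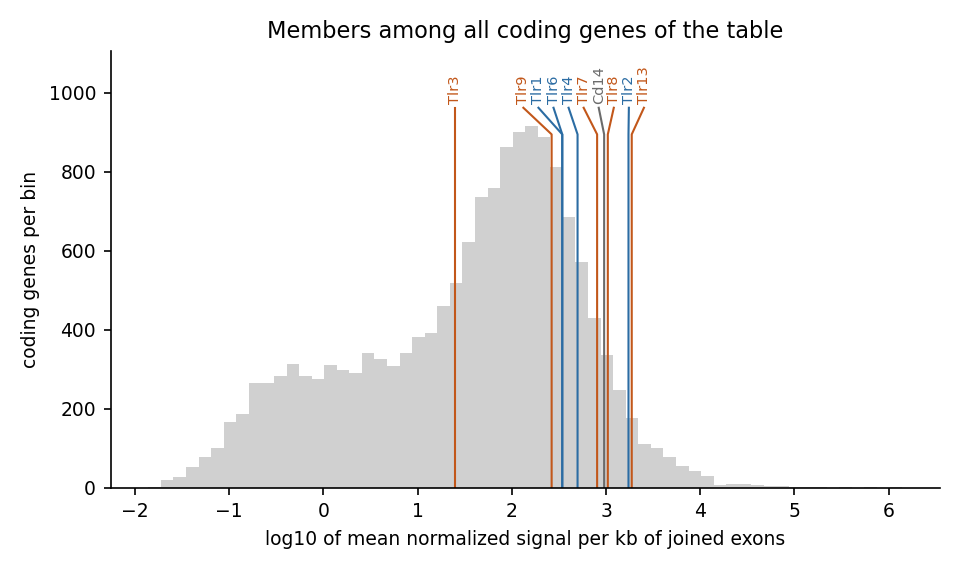
Number of coding genes per bin against log10 of the mean signal per kb of joined exons, with each member marked by a vertical line in the colour of its group. Tlr3 lies left of the main peak and the other 9 members lie in its right part or beyond it, up to Tlr13 at 1874 per kb.

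All 12 Toll-like receptor genes of the table can be set beside each other. Tlr5, the flagellin receptor, had 143.0 per kb, below Tlr9 and 5.69-fold above Tlr3. Tlr12 and Tlr11, which in mice sense profilin of protozoa, had 32.5 and 8.78 per kb. Tlr3 was thus the eleventh of 12, and with coding length it passed Tlr12, the ratio of Tlr12 to Tlr3 moving from 1.29 to 0.79. Cd180, a surface relative of Tlr4, had 373.1 per kb, and its partner Ly86 had 504.4 per kb.

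The other genes of the pathway, taken from a list by role, were mostly above the coding median, 44 of 48 (91.7%), against 9 of the 10 members. All 9 genes for trafficking and processing were above it. The lysosomal proteases Ctss and Ctsb, which cut endosomal receptors to their active form, had 7822 and 6707 per kb, and Unc93b1, which carries these receptors to endosomes, had 3690 per kb. Unc93b1 stood 1.97-fold above Tlr13. The lowest of this role were Ctsl at 178.2, Slc15a4 at 248.0 and Ap3b1 at 483.6 per kb. With coding length these 3 were still the lowest but in reverse order, with Ap3b1 at 663.4 and Ctsl at 1154 per kb. Orders of pathway genes within a role are given for joined exons and can change with coding length.

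Of the 6 adaptors, 4 were above the coding median. Myd88 had 2176 per kb, Pik3ap1, which links receptors to phosphoinositide 3-kinase, had 599.6, and Tirap, which brings Myd88 to surface receptors, had 546.1. Ticam1, the adaptor of Tlr3, had 149.2 per kb, so that Myd88 exceeded it 14.6-fold, or 31.1-fold with coding length. Ticam2, which joins Tlr4 to Ticam1, had 54.4 per kb, and Sarm1 had 1.53 per kb. With coding length Tirap (3603 per kb) passed Pik3ap1 (1373 per kb), and Ticam2 (452.5 per kb) passed Ticam1 (203.2 per kb).

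Downstream, all 15 kinases and ligases were above the median, from Ikbke at 84.0 to Tab2 at 855.2 per kb. Irak3, an inhibitory member of the receptor-associated kinases, had 469.2 per kb, Irak2 453.6, and at the other end Tab3 had 94.0 and Tab1 114.6. All 5 transcription factors exceeded it too, led by Irf7 at 1629 per kb, which acts below Tlr7 and Tlr9, and Irf5 at 910.3, with Irf3 the lowest at 384.8. Of the 5 inhibitors, all above the median, Nfkbia was the highest at 3207 per kb and Sigirr the lowest at 65.9.

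**Figure D5:**
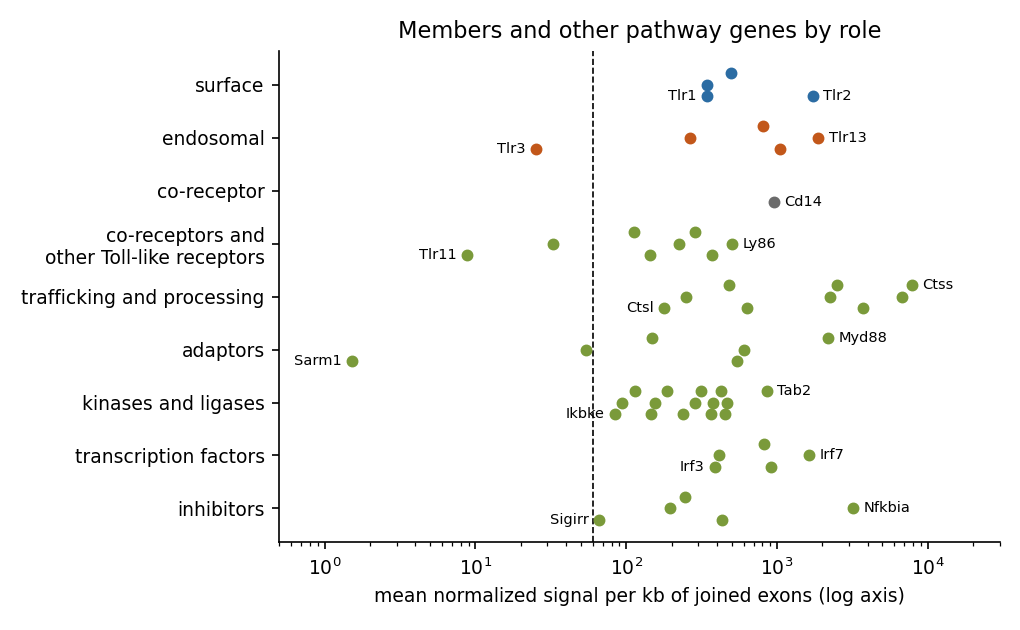
Mean signal per kb of joined exons on a log axis for the members (upper 3 rows) and the other pathway genes by role, 1 point for each gene, with the highest and lowest of each role named. Points are shifted up or down only to keep them apart, and the dashed line is the median of coding genes. Of the 48 pathway genes 44 lie right of it.

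Markers showed what the averaged cells held. Itgam, the gene of CD11b, on which both subsets were sorted, had 10760 per kb. The other monocytic markers were uneven, with Ly6c2 at 5260, Csf1r at 3838, Ccr2 at 370.3, Cx3cr1 at 156.6 and Ly6c1 at 37.1 per kb, the last below the coding median. Per kb of joined exons, the 5 granulocytic markers ran from Ly6g at 8337 to S100a9 at 1389950 per kb. They were all higher than the monocytic markers other than Itgam, which was above Ly6g. This order depended on the divisor. With coding length Ly6c2 was at 36674 per kb, above Ly6g at 19536 and Csf3r at 30623. Transcripts of genes listed as markers of other splenic cells were present as well. Whether they came from such cells or from the sorted myeloid cells was not tested. The B cell markers Ms4a1 and Cd79a were at 821.8 and 4065 per kb, and the 4 macrophage markers at 602.7 (Spic) to 9704 (C1qb) per kb. The T cell markers lay between 70.5 (Cd3e) and 188.3 (Cd4) per kb. Of the plasmacytoid dendritic cell markers Siglech and Tcf4 were at 34.3 and 31.9 per kb, with Bst2 at 904.4. Tcf4 has 27.382 kb of joined exons. With coding length it was at 420.7 per kb, against 116.4 for Siglech and 1583 for Bst2. B cells and macrophages also express Toll-like receptors, and their part in the members' levels was not tested. Lmna had 13.6 per kb, at the 32.2nd percentile of coding genes, in a mean that joins wt and LmnaMyeKO samples, so it is no check of the deletion.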

How the data were processed

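RNA was sequenced from sorted splenic myeloid cells in 8 samples. The authors trimmed reads with Cutadapt 1.14, mapped them to mm10 with STAR 2.5.2b, quantified genes with RSEM 1.3.0 on GENCODE M12 and compared groups with DESeq2 1.20.0. The deposited signal is the authors' mean of counts divided by size factors. The other deposited columns hold the authors' log2 fold change for 1 comparison of wt and lamin A/C-deficient cells. They also hold its standard error, Wald statistic, p-value, adjusted p-value and signed fold change. None of these columns was used.

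The libraries behind the mean were worked out from its 1223 values under 0.4, of which all 109 distinct values were sums of whole reads over 8 steps (tolerance 5e-08). The steps gave size factors of 0.796 to 1.91, 1 library at 1.91 and the next at 1.05, and could not be tied to samples. The paper gives only a range of reads per sample, so the depth of each single sample is unknown. The method was tested on simulated data.

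Signal was divided by the length of joined exons in GENCODE M21, which held 23004 of the 23084 genes. For 28 repeated symbols the row with the higher signal was used. Counting intervals (95%, Poisson) used the fewest reads the signal allows. Coding regions were aligned globally with Biopython (match 2, mismatch -1, gap opening -6, extension -1). Genes named were the members and, for each pathway role, at most the 3 highest and 3 lowest, plus Ly96 and Tlr5, chosen after their values were seen. Members and lists were chosen with earlier results of these data known. Alternatives were other lengths, gene backgrounds and left-out genes.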

Additional observations from a re-analysis of the deposited data

How the results depend on the processing

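The endosomal share of the summed level of the 9 receptors (57.9%) was 55.1% with coding length, 57.3% with the longest transcript, 60.8% without division by length, 65.6% from medians, 50.9% with Cd14 counted as surface, 64.3% without Tlr1 and Tlr6, 77.2% without Tlr2, 42.6% without Tlr7 and Tlr8 and 42.3% without Tlr13. These changes follow from the construction of each alternative. With all 9 receptors counted, equal levels would give the endosomal group a share of 5 of 9. The count of members above the coding median was 9 in the 3 alternatives run, which were coding length, no division by length and only genes with a mean of 10 or more. Coding length raised the levels of all 10 members, which had to happen because it is shorter than the joined exons of each.

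No paired analysis was possible because each gene has only 1 pooled mean. The planned test of genotype on counts, its other normalization, its low-count filter and leaving out replicates were not run either, since all need sample-level values. Counting intervals leave out the spread between samples, which is unknown. The levels of Tlr1 and Tlr6 depend on how shared reads were divided.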
